A study of Mus musculus with 8 samples.

Results

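Transcripts of 10 macrophage marker genes were followed in cultures of mouse embryonic palate cells: Laptm5, Fcer1g, C1qa, C1qb, C1qc, Cd14, Adgre1, Lyz2, Tyrobp and Aif1. The members were every probe carrying one of these gene names in the platform annotation, which gave 14 of the 46632 probes on the array and 10 of the 17711 genes with a probe. The cells, called MEP cells, were primary cells of the palatal shelf, the outgrowth that forms the roof of the mouth, and came from E13.5 embryos of a CBA;C57BL6 N2 background. They were grown in serum-containing medium and used at passage 1. Induced cells received ephrin-B1-Fc that had been pre-clustered, at 2 ug/ml for 60 min, on 4 arrays. Uninduced cells from the same source filled the other 4 arrays, and whether they received the clustering reagent alone is not stated. Ephrin-B1 is a membrane-bound ligand of Eph receptor tyrosine kinases, and the soluble clustered form sets off signaling in cells that carry the receptor. The labels describe the cells as 1 primary cell type and do not name macrophages, and leave it unsaid if each replicate was a culture of its own. The p-values of the main test of induced against uninduced cells therefore measure the spread between arrays. Those for replicate numbers rest on the spread left after group and replicate number.

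Macrophages are phagocytes of the innate immune system that settle in embryonic tissues early and clear dying cells. Their markers have distinct jobs. C1qa, C1qb and C1qc encode the chains of C1q, the recognition part of the classical complement pathway, which macrophages themselves secrete. Tyrobp (also DAP12) and Fcer1g are small signaling adaptors that pair with receptors lacking a signaling tail of their own. Cd14 is a co-receptor for bacterial endotoxin and Adgre1 is the adhesion-type receptor known as F4/80. Lyz2 is the lysozyme of myeloid cells, Laptm5 a lysosomal membrane protein of blood cell lineages, and Aif1 (also Iba1) an actin-binding protein. None of the markers is taken here as made by macrophages alone. Neutrophils, for example, also make Lyz2 and mast cells Fcer1g.

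Lyz2, Laptm5, C1qb and C1qc were the members that differed between replicate numbers within a slide, as described further on, and their upstream sequences are shown for that reason. The RefSeq table of promoters matched 6 of the 10 genes, Laptm5, Fcer1g, C1qb, C1qc, Lyz2 and Aif1. The 250 bases before the annotated start are given 5′ to 3′ on the gene's own strand (build GRCm38.p6), and capitals mark the letters GAGGAA on either strand. They hold the core recognized by Spi1 (PU.1), the transcription factor that directs myeloid development.
Lyz2 (chr10:117282273-117282522, minus strand): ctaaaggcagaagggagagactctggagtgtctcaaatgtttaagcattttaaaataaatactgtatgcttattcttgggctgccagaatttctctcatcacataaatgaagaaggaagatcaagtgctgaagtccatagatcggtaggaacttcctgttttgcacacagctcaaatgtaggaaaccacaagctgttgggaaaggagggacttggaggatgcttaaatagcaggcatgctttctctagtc
Laptm5 (chr4:130913066-130913315, plus strand): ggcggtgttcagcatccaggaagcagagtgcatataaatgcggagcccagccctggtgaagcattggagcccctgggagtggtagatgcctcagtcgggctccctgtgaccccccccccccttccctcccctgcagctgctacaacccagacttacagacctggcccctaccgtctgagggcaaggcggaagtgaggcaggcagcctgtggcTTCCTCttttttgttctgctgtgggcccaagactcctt
C1qb (chr4:136886201-136886450, minus strand): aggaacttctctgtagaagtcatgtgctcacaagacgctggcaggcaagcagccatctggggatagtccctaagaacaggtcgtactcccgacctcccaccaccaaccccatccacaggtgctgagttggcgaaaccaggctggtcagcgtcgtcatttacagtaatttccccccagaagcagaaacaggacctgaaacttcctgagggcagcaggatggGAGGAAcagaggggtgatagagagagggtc
C1qc (chr4:136892915-136893164, minus strand): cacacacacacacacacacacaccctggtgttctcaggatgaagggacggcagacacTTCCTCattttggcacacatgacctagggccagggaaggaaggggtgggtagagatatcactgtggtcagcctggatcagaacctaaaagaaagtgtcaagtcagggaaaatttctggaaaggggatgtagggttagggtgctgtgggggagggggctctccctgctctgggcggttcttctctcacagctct
The motif, searched on both strands, was found in 4 of the 6 sequences, those of Laptm5, C1qb, C1qc and Aif1, and in 23.3% of all 32851 promoters at the same length. Its first base lay at -38 in Laptm5, -30 in C1qb, -193 in C1qc and -7 in Aif1, counted from the start of the gene. In the same annotation C1qb, C1qc and C1qa are consecutive genes.

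Signals were average bead intensities on a linear scale, with a median of 69.6 to 75.9 per array, and 15303 to 17362 probes per array had a detection p under 0.05, the threshold used here for above background. The detection p compares a probe with the negative control beads of its array. Induced and uninduced replicates 1 shared slide 1, replicates 2 shared slide 2, and replicates 3 and 4 of both groups shared slide 3. More probes were above background on the arrays of slide 3 (16699 to 17362) than on those of slides 1 and 2 (15303 to 15790). Of 11 palatal mesenchyme genes listed, 10 passed the filter of detection on at least 4 of the 8 arrays, the exception being Tbx22.

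All 10 macrophage genes had a probe that passed this filter, most of them at low signal. Laptm5, Fcer1g, C1qb, C1qc and Cd14 were above background on all 8 arrays. C1qa was above it on 7, Adgre1 on 6, Lyz2 and Aif1 on 5 and Tyrobp on 4. The Laptm5 probe read between 274.9 and 613.8, whereas the C1qa probe stayed between 90.7 and 120.5 and the Tyrobp probe between 72.1 and 102.8. The remaining 4 probes, 1 for Adgre1, 2 for Lyz2 and 1 for Aif1, were above background on no array, read 82.7 at most and were not tested. The paralog Lyz1, whose transcript is close in sequence to that of Lyz2, had 2 probes, above background on 0 arrays.

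Detection differed by replicate number. The Lyz2 and Adgre1 probes were below background on both arrays of replicate 1 and above it on all 4 arrays of slide 3. Aif1 behaved likewise. Tyrobp was above background on induced replicates 2, 3 and 4 and on uninduced replicate 3. C1qa missed the threshold on uninduced replicate 1 only, with a detection p of 0.0543.

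**Figure D1:**
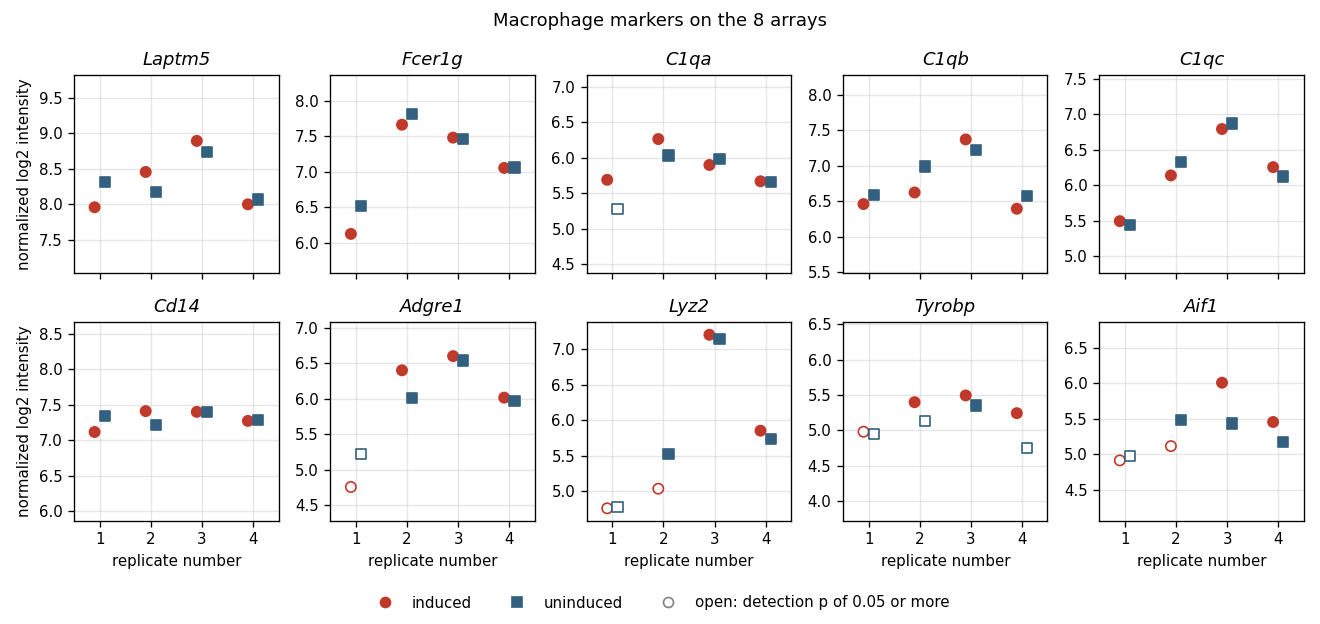
Normalized log2 intensity of the 10 macrophage genes (vertical axis, each panel spanning the same width) by replicate number (horizontal axis), for induced cells (circles) and uninduced cells (squares); open symbols had a detection p of 0.05 or more. Lyz2 stood at 7.21 on the induced and 7.15 on the uninduced array of replicate 3, above its other 6 arrays, while Cd14 stayed between 7.12 and 7.41 throughout.

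Induced were set against uninduced cells to ask whether ephrin-B1 changes these transcripts within 60 min. No macrophage marker passed the test. On the normalized log2 scale Laptm5 averaged 8.33 ± 0.44 in induced and 8.32 ± 0.30 in uninduced cells (SD, n = 4 each). C1qb averaged 6.71 ± 0.45 in induced and 6.84 ± 0.32 in uninduced cells, and C1qc 6.17 ± 0.53 in induced and 6.19 ± 0.59 in uninduced cells (SD, n = 4 each). Cd14, the steadiest member, averaged 7.30 ± 0.14 in induced and 7.31 ± 0.08 in uninduced cells (SD, n = 4 each). The groups overlapped for each of the 10 genes.

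Of the 10 members, limma called 0 at an adjusted p under 0.05 and 0 at an unadjusted p under 0.05, where 0.0319% of 9396 tested genes were called (0.0106% higher, 0.0213% lower) and 1.27% had an unadjusted p under 0.05. The mean was higher in induced cells for 5 members and lower for 5, beside 4624 higher and 4772 lower over all genes tested. Their median difference, induced minus uninduced, was -0.0029 on the log2 scale, beside -0.0014 over all genes tested. The interval of the difference was narrowest for Cd14, at -0.26 to 0.24 (95%), and widest for Lyz2, at -1.29 to 1.12. Laptm5 had an interval of -0.46 to 0.47 and C1qc one of -0.70 to 0.66. With the replicate number as a block, the standard errors were 0.090 to 0.15 in place of 0.11 to 0.55, and again 0 members passed, with adjusted p from 0.675 to 0.999, where 0.575% of all genes did. With the slide as a block 0 members passed and 0.16% of all genes did.

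Tyrobp was the one member whose induced array was the higher in 4 of 4 pairs of the same replicate number. Its log2 intensity was 4.98, 5.40, 5.49 and 5.24 on induced replicates 1 to 4 and 4.95, 5.13, 5.35 and 4.76 on uninduced replicates 1 to 4. The difference of 0.23 (SE 0.17, limma adjusted p = 0.9998; 0.675 with the block) did not pass, and the signal was close to background. For Fcer1g, the other signaling adaptor among the members, the pair differences were -0.39, -0.15, 0.02 and -0.0057, and its induced array was the higher in 1 of 4 pairs. Adgre1 ran from -0.47 in pair 1 to 0.39 in pair 2.

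**Figure D2:**
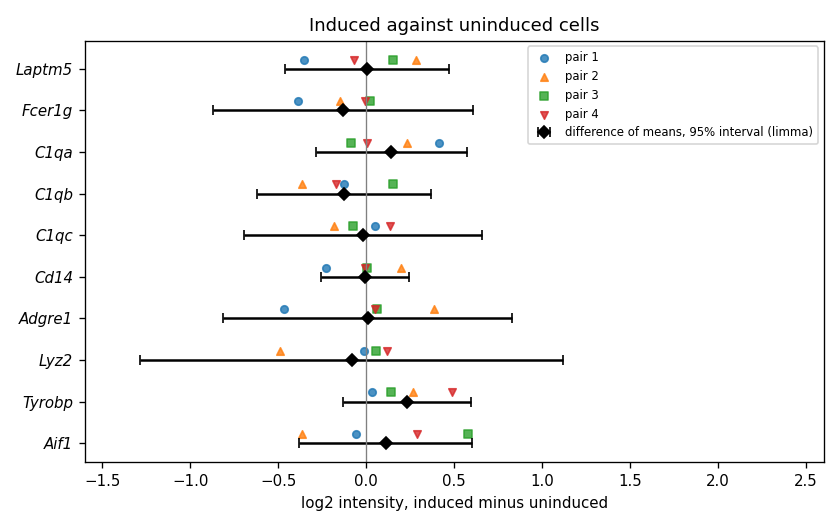
Log2 intensity, induced minus uninduced (horizontal axis), for the 10 macrophage genes (rows): diamonds with bars give the difference of means with its 95% interval from limma, small symbols the 4 pair differences. The intervals come from the fit without a block. Each interval includes 0, and the interval of Lyz2 is the widest, from -1.29 to 1.12.

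Between replicate numbers the picture was different. With group and replicate number in one limma fit, the F test of the replicate number called 8 of the 10 members at an adjusted p under 0.05, all but Cd14 (adjusted p = 0.671) and Tyrobp (adjusted p = 0.111). This test called 46.6% of all genes, so replicate numbers differed throughout the transcriptome and the members' count has to be read beside that share. The size of the member differences can be set beside all genes too. From the lowest to the highest replicate number the mean log2 intensity spanned a median of 0.80 over the members, against 0.35 over all genes tested, and stayed at 0.80 with the members not above background on replicate 1 at their bounds. The replicate number accounted for a median of 87.7% of a member's variance over the 8 arrays, against 75.5% for all genes. Without both arrays of replicate 3 the F test called 5 members, and 3193 of 9396 genes, losing Laptm5 (adjusted p = 0.210), C1qb (adjusted p = 0.175) and Aif1 (adjusted p = 0.243). With the slide in place of the replicate number it also called 5 members, and 2734 of 9396 genes, losing the same members. RNA from whole cultures cannot tell fewer macrophages from less marker RNA per macrophage, or either from marker RNA made by other cells. Which cells carried these transcripts was not tested.

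Lyz2, the lysozyme gene, varied most. Its raw signal was 73.2, 80.4, 225.6 and 113.3 on induced replicates 1 to 4 and 72.4, 91.0, 206.9 and 110.3 on uninduced replicates 1 to 4. Both arrays of replicate 3 lay above the other 6 and both of replicate 4 above those of replicates 1 and 2. Since the probe was not above background on replicate 1, its span is a lower bound: replicate 3 was at least 3.73-fold higher than replicate 1 (F test adjusted p = 3.14e-07). This and the other bounds take each array where a probe was not above background at the lowest signal of any probe that was.

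For the lysosomal Laptm5 both arrays of replicate 3 lay above the other 6. Its raw signal was 283.6, 347.3, 613.8 and 329.7 on induced replicates 1 to 4 and 364.4, 274.9, 519.0 and 358.6 on uninduced replicates 1 to 4. Replicates 1, 2 and 4 overlapped. The span was 1.72-fold (adjusted p = 0.000541).

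The C1q chains did not all have their highest normalized mean in the same replicate number. C1qb read 136.7, 136.0, 245.3 and 142.6 on induced replicates 1 to 4 and 145.7, 149.0, 215.3 and 159.3 on uninduced replicates 1 to 4, with replicate 3 above the other 6 arrays. C1qc read 97.7, 114.0, 183.3 and 134.2 on induced replicates 1 to 4 and 95.9, 114.9, 179.5 and 130.0 on uninduced replicates 1 to 4, and replicate 1 lay below every other array as well. For C1qa the highest normalized mean was that of replicate 2, at 6.15, beside 5.94 for replicate 3 and 5.48 for replicate 1. Its replicates 3 and 2 did not differ by the test (log2 difference -0.21, limma adjusted p = 0.360). In raw signal its highest array was induced replicate 3, at 120.5, beside 118.7 on induced replicate 2. The F test gave adjusted p of 0.0009 for C1qb, 3.38e-05 for C1qc and 0.0165 for C1qa. The C1qa call was lost with no filter on detection (0.0634), without replicate 1 (0.0633) and without replicate 2 (0.0922).

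The adaptor Fcer1g and the receptor Adgre1 set replicate 1 apart from the rest. Fcer1g read 119.7, 222.1, 261.7 and 196.9 on induced replicates 1 to 4 and 141.4, 221.6, 243.7 and 204.2 on uninduced replicates 1 to 4. After normalization its highest mean was that of replicate 2 (7.74), with 7.47 for replicate 3 and 6.32 for replicate 1, a span of 2.67-fold (adjusted p = 3.17e-06). Adgre1 read 73.1, 125.2, 166.6 and 121.2 on induced replicates 1 to 4 and 89.1, 104.4, 152.8 and 121.5 on uninduced replicates 1 to 4. Not above background on replicate 1, it was at least 2.45-fold higher in replicate 3 (F test adjusted p = 3.72e-05).

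Aif1, the actin-binding marker, had its highest array in induced replicate 3 and both arrays of replicate 1 lowest, where it was not above background. Its log2 intensity was 6.01 on induced but 5.43 on uninduced replicate 3. The latter lay below uninduced replicate 2 (5.48) and induced replicate 4 (5.46). Replicate 3 was at least 1.36-fold higher than replicate 1 (F test adjusted p = 0.036), a call lost with no filter on detection (0.0543), without a variance trend (0.0823) and without replicate 1 (0.185). Cd14 spanned 1.12-fold, less than most genes, since 11.8% of tested genes had a smaller span. Tyrobp was not above background on replicate 1 and its means lay between 4.96 for replicate 1 and 5.42 for replicate 3.

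Counted over the members, 8 had their highest mean in replicate 3 and 8 their lowest in replicate 1, where 23.7% and 20% of all genes did. Both arrays of replicate 3 lay above the other 6 for 5 members, Laptm5, C1qb, C1qc, Adgre1 and Lyz2, a pattern held by 9.38% of all genes. Both arrays of replicate 1 lay below the other 6 for 5 members, Fcer1g, C1qc, Adgre1, Lyz2 and Aif1, against 7.23% of all genes. Across the 8 arrays each member's correlation with the mean of the other 9 was between 0.58 (C1qa) and 0.96 (C1qc), a description over 4 pairs that share replicate number and slide.

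**Figure D3:**
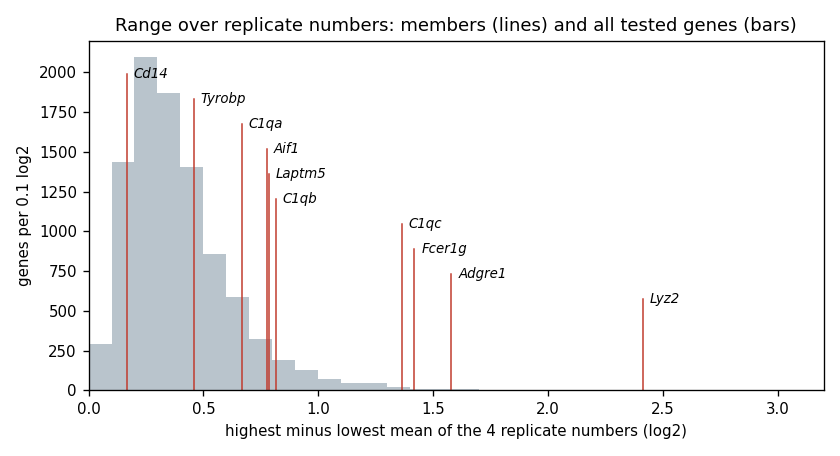
Highest minus lowest mean log2 intensity among the 4 replicate numbers (horizontal axis): bars count the tested genes per 0.1 log2, and lines mark the 10 macrophage genes at heights that carry no value. Lyz2 lies at 2.41 and Adgre1 at 1.58, measured values whose lower end was not above background (bounds 1.90 and 1.29), and Cd14 at 0.17 is the member with the smallest span.

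Replicates 3 and 4 were on the same slide, so their difference is measured within it. The mean of replicate 3 was the higher for 10 of 10 members, and for 5124 of 9396 tested genes. Both arrays of replicate 3 lay above both of replicate 4 for 9 members, all but Aif1, where 28.4% of all genes showed that order. Between these replicates limma called 4 members higher in replicate 3 and 0 lower, where 6.16% of all genes were called, 2.95% higher and 3.21% lower. The log2 difference of Lyz2 was 1.38 with an SE of 0.18 (adjusted p = 0.000104), or 2.61-fold. C1qb was higher by 0.81 (SE 0.14, adjusted p = 0.00231) and Laptm5 by 0.78 (SE 0.13, adjusted p = 0.000995). C1qc was higher by 0.64 (SE 0.15, adjusted p = 0.0169), a call lost when no filter was set on detection (adjusted p = 0.0840). The median over the members was 0.50, beside 0.02 over all genes.

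Replicates 2 and 1 were on different slides, and slide and replicate cannot be told apart there. Limma called 4 members higher in replicate 2 and 0 lower, where 7.59% of all genes were called, 3.53% higher and 4.05% lower. Fcer1g was higher by 1.42 (SE 0.13, adjusted p = 5.95e-06), C1qc by 0.76 (SE 0.15, adjusted p = 0.0065) and C1qa by 0.67 (SE 0.17, adjusted p = 0.0232). The C1qa call was lost with no filter on detection (adjusted p = 0.0771). Adgre1 was at least 1.91-fold higher (adjusted p = 0.000853), since it was not above background on replicate 1. C1qc was the member called in both differences. In the widest contrast, replicate 3 minus replicate 1, limma called 7 members higher and 0 lower, where 28% of all genes were called, 12.5% higher and 15.5% lower. The largest bounds there were those of Lyz2 and Adgre1 given above. Replicate 3 minus replicate 2 gave 4 members higher and 0 lower (33.1% of all genes called, 14.9% higher and 18.1% lower). Replicate 4 minus replicate 1 gave 4 higher and 0 lower (27.4% of all genes called, 11.4% higher and 16.1% lower). Replicate 4 minus replicate 2 gave 1 higher, Lyz2, and 2 lower, Fcer1g and C1qa (31.4% of all genes called, 13.2% higher and 18.3% lower). Tyrobp and Cd14 were called in 0 of the 6 differences.

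Other genes of the macrophage lineage were sparse in these cultures. Of 30 listed genes 28 had a probe, 14 were above background on no array, and 8 passed the filter. Among those not above background anywhere were Ptprc (CD45), the phosphatase of blood cells, Itgb2, the leukocyte integrin chain, and Cx3cr1, the fractalkine receptor. The F test of the replicate number called 6 of the 8, where it called 46.6% of all genes. Replicate 3 minus replicate 4 gave 4 higher and 0 lower, where 2.95% of all genes were higher and 3.21% lower. Replicate 2 minus replicate 1 gave 2 higher and 0 lower, where 3.53% were higher and 4.05% lower. Pf4, a chemokine of platelets and some macrophages, was higher in replicate 3 than in replicate 4 by 1.28 (SE 0.17, adjusted p = 0.000146). Ms4a7, a membrane protein of macrophages, was higher by 0.72 (adjusted p = 0.0245), Coro1a, an actin-binding coronin of leukocytes, by 0.47 (adjusted p = 0.0299) and Lst1 by 0.45 (adjusted p = 0.0339). Spi1 itself differed by -0.02 (SE 0.17). In induced against uninduced cells 0 of these 8 were called and their median difference was 0.08.

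**Figure D4:**
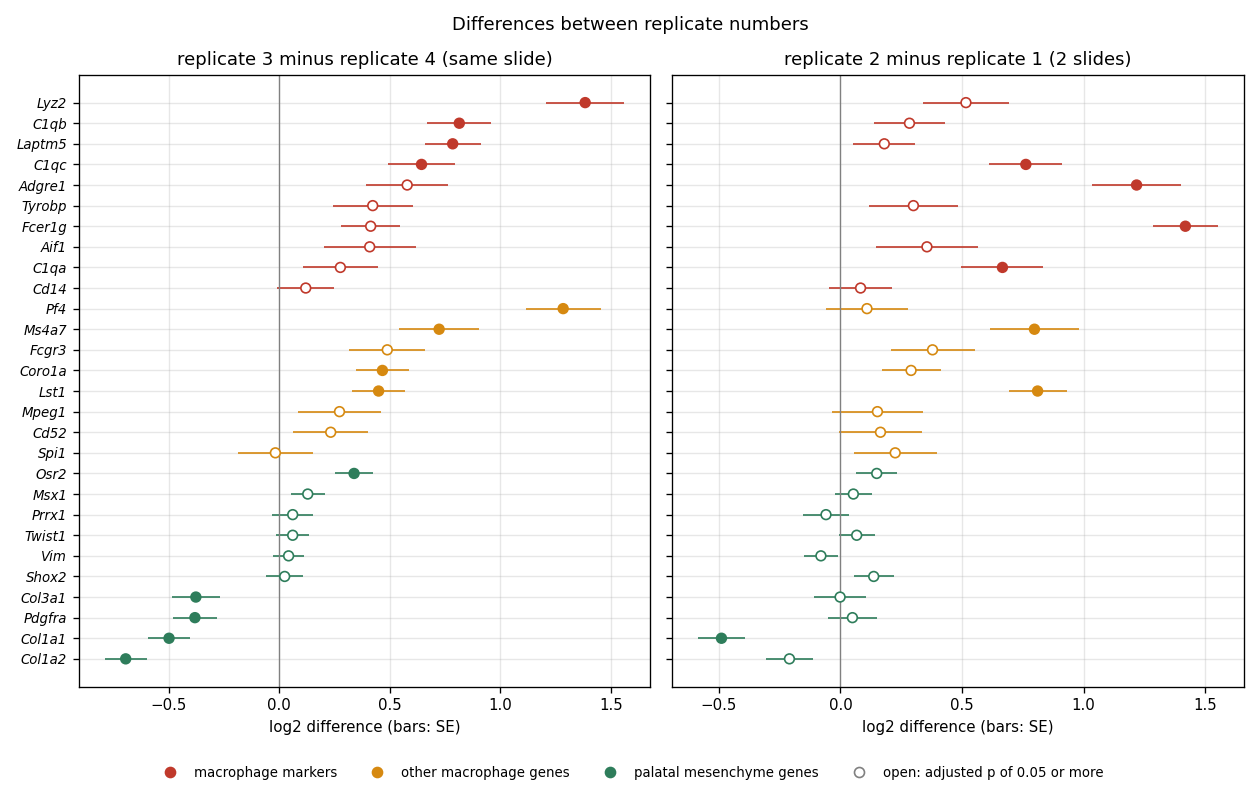
Log2 differences between replicate numbers with standard errors (horizontal axes) for macrophage markers, other macrophage genes and palatal mesenchyme genes (rows); filled symbols had an adjusted p under 0.05. In replicate 3 minus replicate 4 the macrophage markers lie between 0.12 and 1.38, and the mesenchymal genes between -0.69 (Col1a2) and 0.34 (Osr2), with a median of 0.03 and 6 of 10 above 0. Adgre1, Lyz2, Aif1, Tyrobp, Ms4a7, Pf4 and Mpeg1 were not above background on replicate 1, so their differences over it are not exact. Pf4 and Mpeg1 were not above background on replicate 2 either, so neither side of their replicate 2 minus replicate 1 difference was measured.

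The partners through which the markers act were measured only in part. Of 14 receptors and kinases that work with Tyrobp and Fcer1g, 3 passed the filter, and the kinase Syk was above background on 0 arrays. Clec4n, a lectin receptor that signals through Fcer1g, was higher in replicate 3 than in replicate 4 by 0.77 (SE 0.20, adjusted p = 0.0276). Fcgr3, an Fc receptor that needs the same adaptor, differed by 0.49 (adjusted p = 0.111). Of 11 genes of endotoxin sensing around Cd14, 8 passed the filter and 0 differed between replicates 3 and 4. Tlr4, the endotoxin receptor, was lower in replicate 2 than in replicate 1 (log2 difference -0.64, adjusted p = 0.0201), whereas Ly96, its binding partner, differed by -0.10. The adaptor Myd88 differed there by 0.10 and the kinase Irak1 by 0.13. Of 16 other complement genes 5 passed the filter, and 1 was higher in replicate 3 than in replicate 4, Cd59a, an inhibitor of the membrane attack complex, by 0.42 (adjusted p = 0.0113). The properdin gene Cfp differed there by 0.28 (adjusted p = 0.145) and the C1 inhibitor gene Serping1 by -0.31 (adjusted p = 0.185). Csf1, the growth factor that macrophages live on, was measured on all 8 arrays and its means spanned 1.08-fold over the replicate numbers (F test adjusted p = 0.570). In induced against uninduced cells 0 genes of these 4 lists were called.

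Markers of other cell types also moved between replicate numbers, and their part in the results above was not tested. In replicate 3 minus replicate 4, the muscle actin gene Actc1 was higher by 1.83 (adjusted p = 2.49e-10) and the endothelial Emcn by 0.76 (adjusted p = 0.0173). The other endothelial gene tested, Kdr, differed by -0.22 (adjusted p = 0.514). Actc1 was the 1 of 6 muscle genes that passed the filter, with Myod1, Myf5 and Des above background on no array. Emcn and Kdr were the 2 of 7 endothelial genes that passed, with Pecam1, Cdh5, Tek and Tie1 above background on no array. Of the keratins Krt18 was lower (log2 difference -0.49, adjusted p = 0.00423), and Krt8 differed by 0.51 (adjusted p = 0.189). The mesenchymal list gave 1 higher (Osr2, by 0.34) and 4 lower, among them the collagen genes Col1a2 (log2 difference -0.69, adjusted p = 0.000189) and Col1a1 (log2 difference -0.50, adjusted p = 0.00397). Col3a1 was lower as well (log2 difference -0.38, adjusted p = 0.0486), while Twist1 differed by 0.06 and Vim by 0.04. The median of the 10 mesenchymal genes was 0.03, with 6 above 0. The platelet chemokine Ppbp was lower (log2 difference -2.38, adjusted p = 2.49e-10), opposite to Pf4. In replicate 2 minus replicate 1, Ppbp was higher by 2.48 (adjusted p = 1.94e-10) and the keratin Krt14 at least 2.17-fold higher (adjusted p = 0.000145), not being above background on replicate 1. The summed linear intensity of the 10 macrophage markers averaged 657, 984, 1307 and 795 for replicates 1 to 4. By group that sum lay between 598 and 1353 in induced and between 717 and 1260 in uninduced cells. Of 7 mast cell genes 0 passed the filter, with Cpa3, Fcer1a, Ms4a2, Mcpt4 and Kit above background on no array. Of 8 lymphocyte genes 1 passed, Ms4a1, while Cd3e, Cd3d, Cd4, Cd79a and Cd79b were above background on no array. Of 8 neutrophil genes 2 passed, S100a8 and Camp, with Mpo, Elane, Ltf, Ngp and S100a9 above background on no array, and none of these was called between replicates 3 and 4. The erythroid list had 0 genes past the filter and the epithelial list 3 of 7. Of 7 osteoclast genes 3 passed, with Acp5, Calcr, Ocstamp and Dcstamp above background on no array. The protease genes Ctsk (raw signal 1364.7 to 1912.6) and Mmp9 (295.3 to 495.6) were above background on all 8 arrays and called by the F test (adjusted p = 0.00125 and 0.000665), and Mmp9 was lower in replicate 2 than in replicate 1 (log2 difference -0.48, adjusted p = 0.00886).

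Genes were ranked by how closely they followed the macrophage markers over the 8 arrays. Among 474 genes above background on all arrays with a range of at least 1 on the log2 scale, the 10 with the highest correlation to the mean centred value of the members were Oip5, Mmp13, Tmem171, Nrn1, S100a7a, Khdrbs3, Gtpbp10, Gemin6, Ube2j2 and Serpinb2. Pearson's r was between 0.93 (Oip5) and 0.81 (Serpinb2), over 8 arrays that form 4 pairs, so these values describe likeness only. Mmp13, a collagenase, had means of 7.94, 8.79, 8.76 and 8.41 for replicates 1 to 4.

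Ccl4, a chemokine that macrophages make early after activation, was higher in induced cells. Its brightest probe had a raw signal of 400.0, 428.0, 486.0 and 251.3 on induced replicates 1 to 4, against 53.3, 60.0, 84.4 and 63.0 on uninduced replicates 1 to 4. The probe was above background on 4 induced and 0 uninduced arrays, so it passed the filter through the induced cells alone and its level in uninduced cells is only bounded. By this probe Ccl4 was at least 8.76-fold higher in induced cells (limma adjusted p = 0.000112), taking each uninduced array at its lowest signal above background. A second, dimmer probe of Ccl4 read 127.5, 128.9, 147.8 and 98.9 on induced replicates 1 to 4. On uninduced replicates 1 to 4 that probe read 63.2, 58.4, 59.3 and 58.0. It too was above background on 4 induced and 0 uninduced arrays, and the bound does not cover it. Ccl3, a close relative, had a raw signal of 113.3, 114.6, 138.8 and 76.3 on induced replicates 1 to 4, against 62.0, 54.2, 75.6 and 59.8 on uninduced replicates 1 to 4. It was above background on 3 induced arrays and was not tested. Of 15 early genes of activated macrophages 7 passed the filter. Among those not tested, Il1b was above background on 3 induced and 0 uninduced arrays, as Ccl3 was. Cxcl2 was above background on 1 induced and 0 uninduced arrays and Il6 on 1 induced and 2 uninduced arrays. Cxcl10, Tnf, Il1a and Il10 were above it on no array. Of the 7 tested, Ccl4 was the one called without a block. With the replicate number as a block Ptgs2, the inducible cyclooxygenase, was called too. It averaged 7.53 ± 0.17 in induced and 8.31 ± 0.20 in uninduced cells (SD, n = 4 each) and was lower in 4 of 4 pairs (log2 difference -0.78, limma adjusted p = 8.14e-05 with the replicate block, 0.00849 with the slide block and 0.137 with neither). The chemokine genes Ccl2 and Ccl7 differed by -0.21 and -0.16 and Ccl9 by -0.06, and 0 of these 3 were called with or without the replicate block.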

How the data were processed

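Total RNA of 8 palate cell samples was labelled as biotinylated cRNA and read on single-channel Illumina bead arrays, per the labels' protocols. The deposited raw values are intensities on a linear scale, exported with GenomeStudio 1.6.0 per the submitters' processing notes, with no normalization between arrays per the file headers. Beside each intensity stands a deposited detection p-value. A second deposited table holds background-subtracted intensities, whose scaling between arrays is not given in the sources used here, and served as an alternative.

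The raw table held 46643 lines for 46632 probes, and 11 repeated identifiers were averaged. Of the probes, 29976 had 1 gene name in the platform annotation, 10 several and 16646 none. Background correction and quantile normalization used neqc (limma 3.58.1, R 4.3.3, offset 16), which estimated the background distribution through the detection p-values, and values are on a log2 scale. A probe was kept if 4 or more of the 8 arrays had a detection p under 0.05 (16514 probes), and the brightest such probe stood for each of 9396 genes. The depth of an array is its signal over background, and the number of arrays limits the precision.

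Limma gave the two-sided test of induced against uninduced cells, with eBayes variances following a trend and p-values adjusted by Benjamini-Hochberg across the genes. The replicate number was tested with a moderated F test in a fit with group, and the 6 differences between replicate numbers, taken from that fit, were added after the values were seen. Replicate numbers were treated as pairs: deviations from the group means correlated across genes, within a number, at 0.625, 0.591, 0.716 and 0.620, and between numbers at -0.538 to 0.300. The group fit without a block, the F test and the differences between replicate numbers were tested on simulated data. The simulated noise was the spread left after group and replicate number, so the group fit met no differences between replicate numbers there. Fits with a block were not simulated. Alternatives were no background correction, median scaling, the deposited processed values, other filters, no variance trend, the mean of kept probes, slide or replicate block, single slides and arrays left out.

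The members and gene lists were chosen with earlier results of these data known. Named were all members; from each list up to 4 genes called with the smallest F test p and the 2 brightest; Ccl4 and Ccl3; and the 10 genes most like the members. Spi1, Osr2, Ptgs2, Il1b, Cxcl2, Il6 and the genes listed as above background on no array were named after their values were seen.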

Additional observations from a re-analysis of the deposited data

How the results depend on the processing

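In induced against uninduced cells, 0 of the 10 members were called under each of the 23 alternatives (5 of them tested with detection on all 8 arrays). The count over all genes, 3 here, was 1 with median scaling, 15 with the slide block, 54 with the replicate block (7 higher, 47 lower), 1 on slides 1 and 2, 0 on slide 3, and 1 to 2 without single arrays or without both arrays of a replicate number. The cause of these moves was not tested, other than that the last settings hold fewer arrays. With the replicate block 0 members were called. The sign of a member's difference turned in 43 comparisons, none of them called. These were, for induced minus uninduced, Adgre1 at -0.0040 without background correction, -0.12 with the deposited processed values and -0.042 on slides 1 and 2; C1qc at 0.0025 with median scaling; Laptm5 at -0.036 and Aif1 at -0.21 on slides 1 and 2; and Fcer1g at 0.0079, C1qa at -0.040, C1qc at 0.027 and Lyz2 at 0.088 on slide 3. Without 1 array or 1 replicate number the ranges were -0.19 to 0.14 for Laptm5, -0.36 to 0.19 for Fcer1g, -0.014 to 0.24 for C1qa, -0.27 to 0.21 for C1qc, -0.077 to 0.064 for Cd14, -0.23 to 0.40 for Adgre1, -0.58 to 0.37 for Lyz2 and -0.10 to 0.27 for Aif1. For replicate 2 minus replicate 1, median scaling turned Laptm5 to -0.0073 and Cd14 to -0.12.

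The F test of the replicate number called 8 members, and under the alternatives 4 of 5 with detection on all 8 arrays, where fewer members were tested, 5 with the slide in place of the replicate number, 6 with no filter on detection, and 5 to 8 without 1 replicate number, the lowest without replicate 3. Without a variance trend it called 8, gaining Tyrobp and losing Aif1. Over all 9396 genes it called 4382, 2734 with the slide in place of the replicate number, and 3193 to 3627 without 1 replicate number. Without a variance trend it called 2985 of them. With detection on all 8 arrays it called 4242 of 8342 genes, and with no filter on detection 3605 of 17711. Median scaling took the median difference of all genes to at most 0.36 between replicate numbers (replicate 3 minus replicate 2) and to 0.04 between replicates 3 and 4. With that scaling the F test called 10 members, and 6222 of 9396 genes. Members higher in replicate 3 than in replicate 4 numbered 3 to 6 under 7 alternatives, and Laptm5 and C1qb were called in each, Lyz2 in the 6 that tested it. Members higher in replicate 2 than in replicate 1 numbered 2 of 5 with detection on all 8 arrays and 3 to 5 under the others. Signals near background limit Tyrobp, Aif1, C1qa and, on replicate 1, Lyz2 and Adgre1.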
